A study of Mus musculus with 5 samples.

Results

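Cyclic nucleotide phosphodiesterases of the mouse thoracic aorta were compared between genotypes through 10 genes, Pde1a, Pde1b, Pde1c, Pde2a, Pde3a, Pde4b, Pde4d, Pde5a, Pde9a and Pde10a. Every probe set that the platform annotation assigns to 1 of these genes alone was taken, which gave 32 of 45037 probe sets. A probe set is a group of short probes for 1 transcript on the array used, the Mouse Genome 430 2.0 of Affymetrix. The P467L group comprised 3 arrays of thoracic aorta from male C57BL/6 mice carrying human PPARγ with the P467L mutation, a dominant negative form of this nuclear receptor, driven in smooth muscle by the promoter of myosin heavy chain. The non-transgenic group comprised 2 arrays of thoracic aorta from male littermates of the same strain without the transgene. RNA of 6 to 8 aortas was combined for every array, so differences between single mice were not measured, and the ages of the mice are not given in the sources used here. Values are on the log2 scale, and each difference is P467L minus non-transgenic with the standard error (SE) of limma, a linear model fitted over all probe sets.

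Phosphodiesterases break down cAMP and cGMP, the second messengers that relax vascular smooth muscle. Families differ in substrate and control: PDE1 enzymes are switched on by calcium and calmodulin, PDE2 is stimulated by cGMP, PDE3 splits cAMP and is inhibited by cGMP, PDE4 is specific for cAMP, and PDE5 and PDE9 are specific for cGMP. PDE5 is the target of sildenafil, and in human arteries PDE1C has been described in proliferating rather than contractile smooth muscle cells.

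Pde1c, a PDE1 enzyme that splits both cAMP and cGMP, was the gene with the largest difference, higher in P467L aortas at 2 of its 6 probe sets, by 3.49-fold and 1.80-fold as measured. The remaining 9 genes differed by at most 0.51 log2 units in size at any probe set. None of the 32 probe sets passed an adjusted p of 0.05, and limma called 0% of all 45037 probe sets at that threshold. At an unadjusted p of 0.05, 5 of the 32 lay past the threshold, or 15.6%, where 7.44% of all probe sets did. The 5 were the brightest Pde1a probe set, both Pde1c probe sets, a dim Pde3a probe set and Pde9a, 4 of them higher and 1 lower. Of all 3353 probe sets at that unadjusted threshold 63.2% were higher in P467L aortas, and 77.1% of 2989 were when each array was centred on its median. The groups did not overlap in 10 of the 32, or 31.2%, against 18.9% of all probe sets, with the P467L arrays above in 6 and below in 4. By mean level 15 of the 32 lay at or above the median of all probe sets and 17 below it. A difference of at least 0.5 log2 units in size was measured in 3 of the 32, or 9.38%, against 2.48% of all. These were the same 2 Pde1c probe sets and 1 of Pde4b, so they stand for 2 genes only. Over the 32 the median difference was 0.04, with 19 above 0 and 13 below, and over all probe sets it was 0.00 with 49.6% above 0.

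The arrays were not equally alike. P467L replicate 1 had 842 probe sets at least 1 log2 unit below every other array, against 0 to 3 in each of the other arrays. Non-transgenic replicate 2 had 56 probe sets at least 1 unit above every other array, and stomach markers averaged 10.4 there against 7.11 to 7.65 elsewhere. Pparg, read by 1 probe set, measured 7.32, 7.27 and 7.27 in P467L and 7.32 and 6.91 in non-transgenic aortas, which does not check the labels, as it is unknown whether its probes bind RNA of the human transgene. Smooth muscle markers were bright, but those read here do not separate aorta from other smooth muscle. The brightest Acta2 probe set measured 14.79 to 14.83 in P467L and 14.79 to 14.80 in non-transgenic aortas. Of contractile smooth muscle 12 of 12 markers were measured, 7 with a positive and 5 with a negative difference, and a median of 0.02. Des differed by 0.81 (SE 0.13). Dimmer probe sets gave -0.20 and -0.39 for Acta2 and -0.25 for Myh11.

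**Figure D1:**
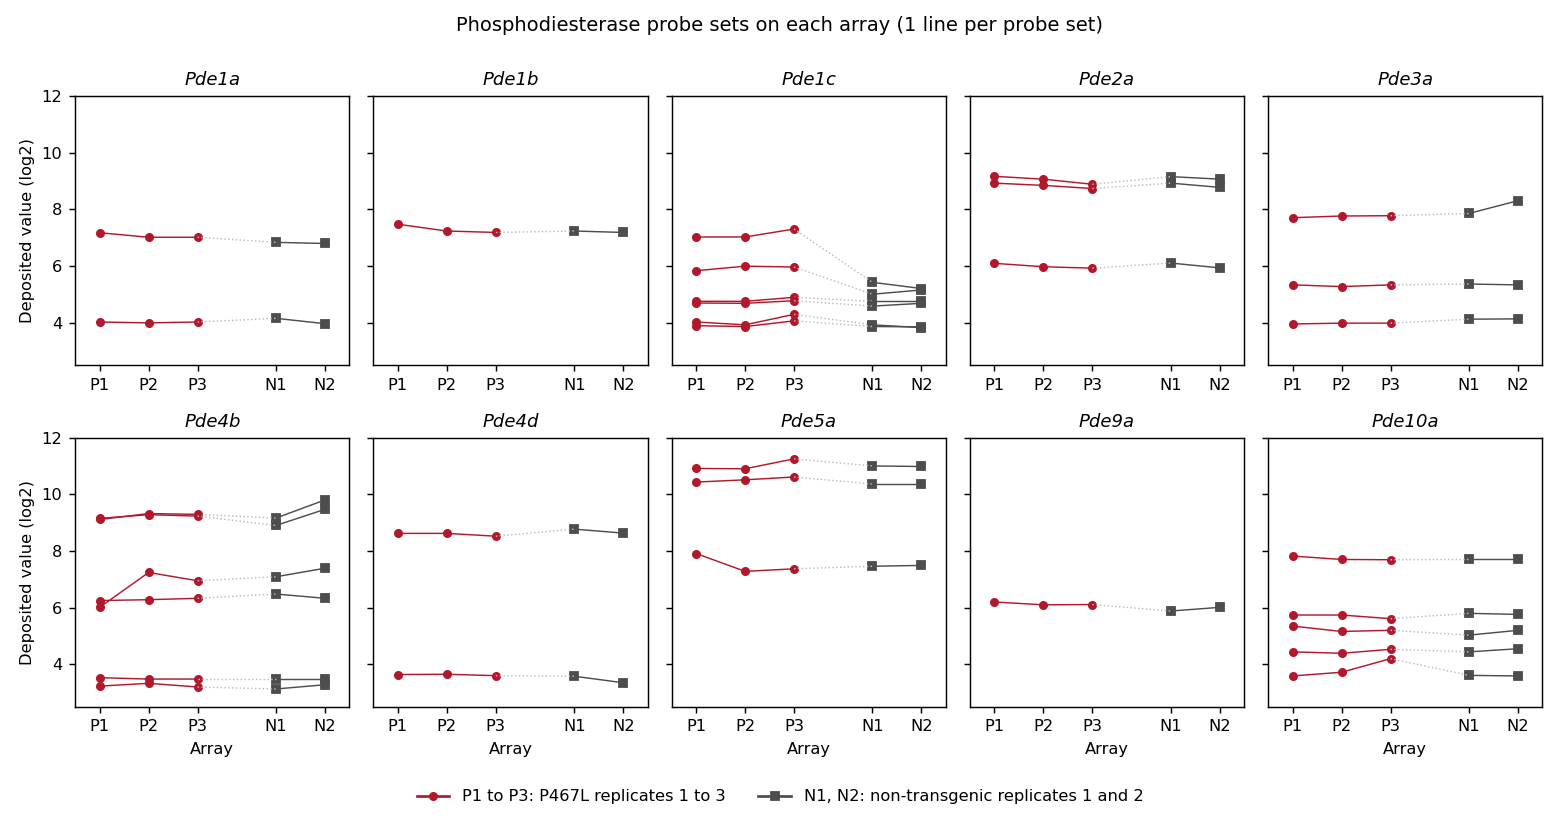
Deposited log2 values of the 32 probe sets of the 10 genes, 1 panel per gene and 1 line per probe set, with the 3 P467L arrays (P1 to P3, circles) left of the 2 non-transgenic arrays (N1 and N2, squares); dotted segments only join the points of a probe set. In Pde1c the upper line lies between 7.03 and 7.31 on P467L arrays and at 5.43 and 5.21 on non-transgenic arrays, while most other lines are nearly flat.

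The largest differences came from Pde1c, of the calcium-dependent PDE1 family. The brightest Pde1c probe set, 1440374_at, measured 7.03, 7.03 and 7.31 in P467L aortas, against 5.43 and 5.21 in non-transgenic aortas. All 3 P467L arrays lay above both non-transgenic arrays by at least 1.6 units. The difference was 1.80 (SE 0.13) with a 95% interval from 1.46 to 2.15, or 2.75-fold to 4.43-fold, and it ranked 11th from the highest among 45037 probe sets. Its adjusted p was 0.134 in limma. It passed the threshold with each array centred on its median, at 1.84 and an adjusted p of 0.0444 in limma, and with array weights.

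A second Pde1c probe set, 1436251_at, measured 5.84, 6.00 and 5.97 in P467L aortas, against 5.01 and 5.16 in non-transgenic aortas. The groups were again apart, with a difference of 0.85 (SE 0.08) and an adjusted p of 0.199 in limma. The other 4 Pde1c probe sets were dim, with values from 3.83 to 4.90 on every array, where the array medians were 6.17 to 6.25. Their differences were 0.05, 0.08, 0.08 and 0.21, and their groups overlapped or shared a value. All 6 Pde1c probe sets therefore gave a positive difference with all 5 arrays, of unequal size. At each of the 4 dim ones P467L replicate 3 was the highest array. Without that array the differences of the dim ones ran from 0.00 to 0.10. Detection calls were not used here. At 1440374_at and 1436251_at the non-transgenic values lay below the array medians, as did the P467L values at 1436251_at. The part of the transcript that each probe set reads is not given in the sources used here.

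Mean levels of some marker lists of other cells that the aorta can hold were also apart between genotypes, by small margins. Over all probe sets 49.6% of differences were positive, and over the brightest of each gene the median difference was 0.02. Of 11 macrophage markers 11 had a positive difference, and their mean level was 9.22 to 9.57 on P467L arrays and 9.17 to 9.21 on non-transgenic arrays. It was highest on P467L replicate 1. Under the alternatives their median difference of 0.24 ran from 0.08, with array weights, to 0.30 without P467L replicate 2. Of 8 fibroblast and adventitial markers 7 had a positive difference, with a mean level of 11.98 to 12.08 in P467L and 11.82 to 11.89 in non-transgenic arrays. Of 7 cardiac muscle markers 4 had a positive difference, and their mean level was 7.08 to 7.33 in P467L and 6.77 to 7.06 in non-transgenic arrays. Their median deviations from the non-transgenic means overlapped, at 0.02 to 0.38 in P467L and -0.10 to 0.09 in non-transgenic arrays. Lymphocyte markers lay lower, 8 of 8, at 5.88 to 6.12 in P467L and 6.17 to 6.18 in non-transgenic arrays. Mean levels of endothelial markers, 8.96 to 9.08 in P467L and 8.98 to 9.01 in non-transgenic arrays, overlapped. Single endothelial markers differed in both directions, 8 with a positive and 4 with a negative difference. In 6 of these 12 the groups were apart, among them Emcn at -1.05 (SE 0.12) and Cldn5 at 0.73 (SE 0.12). Groups were apart in 18.9% of all probe sets, a share over bright and dim ones, while each marker was read at its brightest. Smooth muscle markers averaged 13.15 to 13.18 in P467L and 13.10 to 13.12 in non-transgenic arrays, likewise apart by a small margin. Adipocyte markers, 7.87 to 8.47 in P467L and 7.74 to 8.70 in non-transgenic arrays, overlapped, as did those of skeletal muscle and nerve. Of these markers 0 passed an adjusted p of 0.05. The part of these cells in the Pde1c result was not tested, and in pooled tissue fewer cells of a type and less RNA per cell cannot be told apart.

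**Figure D2:**
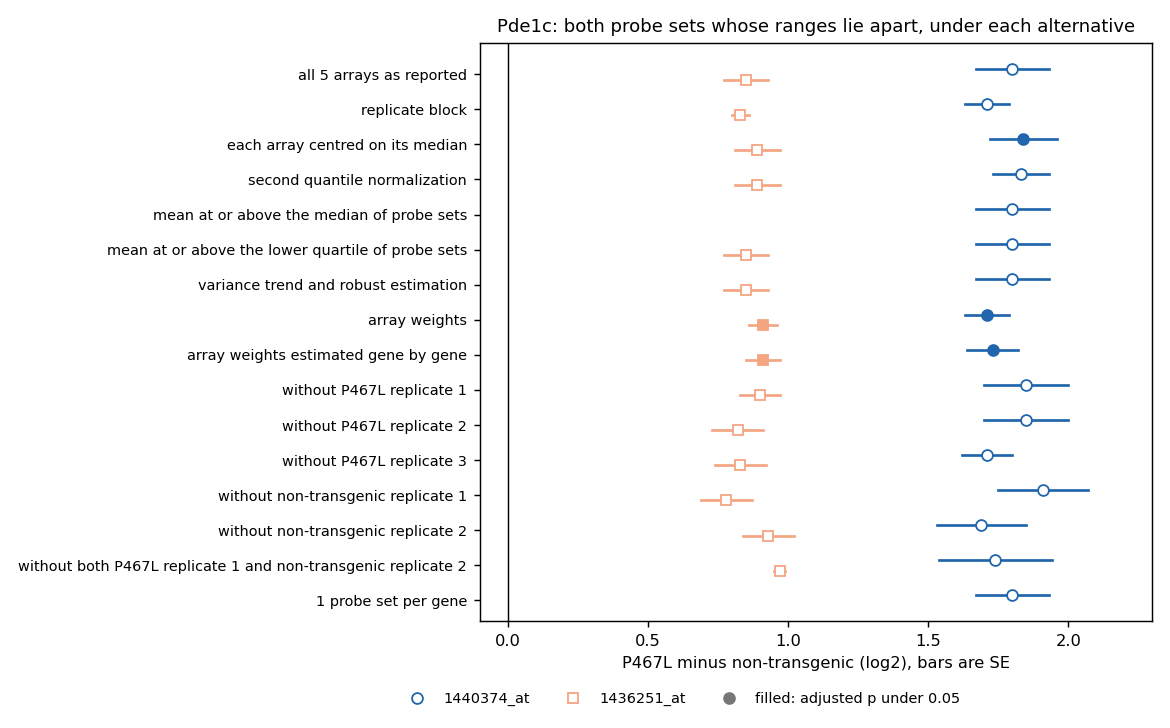
Difference in Pde1c (P467L minus non-transgenic, log2, bars are SE) at 1440374_at (circles) and 1436251_at (squares) with all 5 arrays as reported and under each alternative; filled points have an adjusted p under 0.05, and 2 alternatives that drop dim or extra probe sets have no square. The circles run from 1.69 to 1.91 and the squares from 0.78 to 0.97, and the filled points come from median centring and from both kinds of array weights.

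Because the study interferes with a DNA-binding receptor, the upstream sequence of Pde1c is shown as reference for its 3 annotated starts, with 1 start of Pde1a. Each run is the 250 bases before a transcription start in RefSeq, build GRCm38.p6, read 5′ to 3′ on the gene's strand. Windows were found for 8 of the 10 genes, 23 in all; Pde3a and Pde9a had no entry. Capitals mark a match to a searched motif.

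Pde1c start 1, chr6:56362393-56362642, minus strand: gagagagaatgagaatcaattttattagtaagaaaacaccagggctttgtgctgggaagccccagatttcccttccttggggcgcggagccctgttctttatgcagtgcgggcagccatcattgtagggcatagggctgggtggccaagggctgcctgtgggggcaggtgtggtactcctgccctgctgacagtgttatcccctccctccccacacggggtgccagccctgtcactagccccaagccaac
Pde1c start 2, chr6:56362811-56363060, minus strand: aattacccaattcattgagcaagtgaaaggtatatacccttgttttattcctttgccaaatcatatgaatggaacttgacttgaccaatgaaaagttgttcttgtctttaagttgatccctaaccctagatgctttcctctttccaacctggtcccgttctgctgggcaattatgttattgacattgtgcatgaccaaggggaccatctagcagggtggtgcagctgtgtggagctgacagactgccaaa
Pde1c start 3, chr6:56369635-56369884, minus strand: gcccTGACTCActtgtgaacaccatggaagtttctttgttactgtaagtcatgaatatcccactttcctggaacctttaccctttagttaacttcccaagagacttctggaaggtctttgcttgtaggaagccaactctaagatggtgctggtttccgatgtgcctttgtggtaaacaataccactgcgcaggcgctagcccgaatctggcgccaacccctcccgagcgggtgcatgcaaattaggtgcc
Pde1a, chr2:80128972-80129221, minus strand: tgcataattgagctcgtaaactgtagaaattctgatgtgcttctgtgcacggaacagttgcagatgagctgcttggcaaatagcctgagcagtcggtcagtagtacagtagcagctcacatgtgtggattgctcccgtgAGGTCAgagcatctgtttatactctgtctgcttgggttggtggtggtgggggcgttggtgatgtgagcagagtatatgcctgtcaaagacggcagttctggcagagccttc

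The motifs were searched on both strands. The half-site of nuclear receptors such as PPARγ, AGGTCA, stood in 0 of 3 Pde1c windows and in 1 of the 23 windows, that of Pde1a shown, where it began 111 bases before the start. It stood in 14.0% of the 32851 windows of all genes. The direct repeat of that half-site with a spacer of 1 base, the binding element of the PPARγ and RXR pair, stood in 0 of the 23 and in 0.0335% of all windows. The AP-1 site TGACTCA stood in 1 Pde1c window, 246 bases before start 3, and in 4.46% of all windows. The cAMP response element TGACGTCA stood in 0 of the 23 (1.55% of all), the CArG box of smooth muscle genes in 0 (1.47%), and the E-box CACGTG in 0 (6.02%). The GC box GGGCGG stood in 4 of the 23, in Pde1b, Pde2a, Pde5a and Pde10a, and in 32.7% of all windows. Matching letters do not show that a factor binds, and a missing match covers only these letters in these windows.

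The other PDE1 genes differed less. Pde1a, which prefers cGMP, measured 7.18, 7.02 and 7.02 in P467L and 6.84 and 6.80 in non-transgenic aortas at its brighter probe set. The groups were apart by a small margin, with a difference of 0.25 (SE 0.07), an unadjusted p of 0.0175 and an adjusted p of 0.532 in limma. The dim Pde1a probe set gave -0.04 (SE 0.07) with overlapping groups. Pde1b, another PDE1 enzyme, measured 7.48, 7.24 and 7.19 in P467L and 7.24 and 7.19 in non-transgenic aortas, so only P467L replicate 1 lay above the others. Its difference was 0.09 (SE 0.10), with an interval from -0.19 to 0.37.

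Among the cGMP-specific enzymes, Pde5a, the main cGMP hydrolase of contractile smooth muscle, was read by 3 probe sets above the array medians. The brightest, 1455970_at, measured 10.91, 10.90 and 11.25 in P467L and 11.00 and 10.98 in non-transgenic aortas. P467L replicate 3 lay above and the other P467L arrays below both non-transgenic arrays, and the difference was 0.03 (SE 0.13). Its interval, from -0.32 to 0.38, spans 0.801-fold to 1.30-fold. At 1458341_x_at the values were 10.43, 10.51 and 10.61 in P467L and 10.36 and 10.36 in non-transgenic aortas. There the groups were apart, by 0.16 (SE 0.06), with an adjusted p of 0.730 in limma. The third, 1460118_at, gave 0.04 (SE 0.22) with P467L replicate 1 highest at 7.91, and -0.15 without that array. Pde9a, the phosphodiesterase with high affinity for cGMP, measured 6.20, 6.10 and 6.11 in P467L and 5.88 and 6.01 in non-transgenic aortas. The groups were apart, with a difference of 0.19 (SE 0.06), an unadjusted p of 0.0336 and an adjusted p of 0.604 in limma.

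Pde3a, which lets cGMP slow the breakdown of cAMP, had 3 probe sets with a negative difference. The brightest, 1450284_at, measured 7.71, 7.77 and 7.78 in P467L and 7.86 and 8.31 in non-transgenic aortas. The difference was -0.33 (SE 0.15), with an interval from -0.73 to 0.07, and it rested on the unequal non-transgenic arrays. It was -0.56 without non-transgenic replicate 1 and -0.11 when non-transgenic replicate 2 was left out, the array with the highest values of stomach markers. The dimmest, 1431914_at, measured 3.96, 3.99 and 3.99 in P467L and 4.13 and 4.14 in non-transgenic aortas, near the floor of the scale. Its difference of -0.15 (SE 0.03) had the smallest adjusted p among the 26 probe sets outside Pde1c, 0.446 in limma. The middle probe set gave -0.04 with overlapping groups.

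None of the 8 probe sets of the cAMP-specific PDE4 genes had an unadjusted p under 0.05. Pde4b, the PDE4 gene prominent in leukocytes, measured 9.11, 9.32 and 9.29 in P467L and 9.16 and 9.80 in non-transgenic aortas at 1422474_at. Non-transgenic replicate 2 was highest there and at 1422473_at, where the values were 9.15, 9.28 and 9.23 in P467L and 8.90 and 9.47 in non-transgenic aortas. The differences were -0.24 (SE 0.22) and 0.04 (SE 0.19), and without that array they were 0.08 and 0.32. Without non-transgenic replicate 1 they were -0.56 and -0.25, each again against 1 remaining non-transgenic array. The Pde4b probe set 1442700_at measured 6.01, 7.24 and 6.95 in P467L and 7.09 and 7.39 in non-transgenic aortas, with P467L replicate 1 far below the rest. Its difference of -0.51 (SE 0.42) was -0.14 without that array. The 3 other Pde4b probe sets gave -0.12, 0.02 and 0.05. Pde4d measured 8.62, 8.62 and 8.52 in P467L and 8.77 and 8.63 in non-transgenic aortas at its brighter probe set, apart by a margin of 0.01. The difference was -0.11 (SE 0.06), and its dim probe set gave 0.17 (SE 0.08), the opposite sign. Without non-transgenic replicate 1 the values were -0.04 and 0.28, and without non-transgenic replicate 2 they were -0.18 and 0.05.

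None of the 8 probe sets of Pde2a and Pde10a, which both split cAMP and cGMP, had an unadjusted p under 0.05. Pde2a, which cGMP stimulates and which endothelial cells also carry, measured 9.17, 9.07 and 8.89 in P467L and 9.16 and 9.07 in non-transgenic aortas at 1447708_x_at. Its 3 differences were -0.07, -0.01 and -0.02, with all groups overlapping and all intervals between -0.34 and 0.21. Pde10a, best known from the striatum of the brain, measured 7.82, 7.70 and 7.69 in P467L and 7.70 and 7.70 in non-transgenic aortas at its brightest probe set, a difference of 0.04 (SE 0.06). Its other 4 probe sets lay below the median level and ran from -0.08 to 0.24, the last of which was 0.06 without P467L replicate 3. At 1432490_a_at the groups were apart, at 5.74, 5.74 and 5.61 in P467L and 5.80 and 5.76 in non-transgenic aortas. Of all 5 Pde10a differences 2 were negative.

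**Figure D3:**
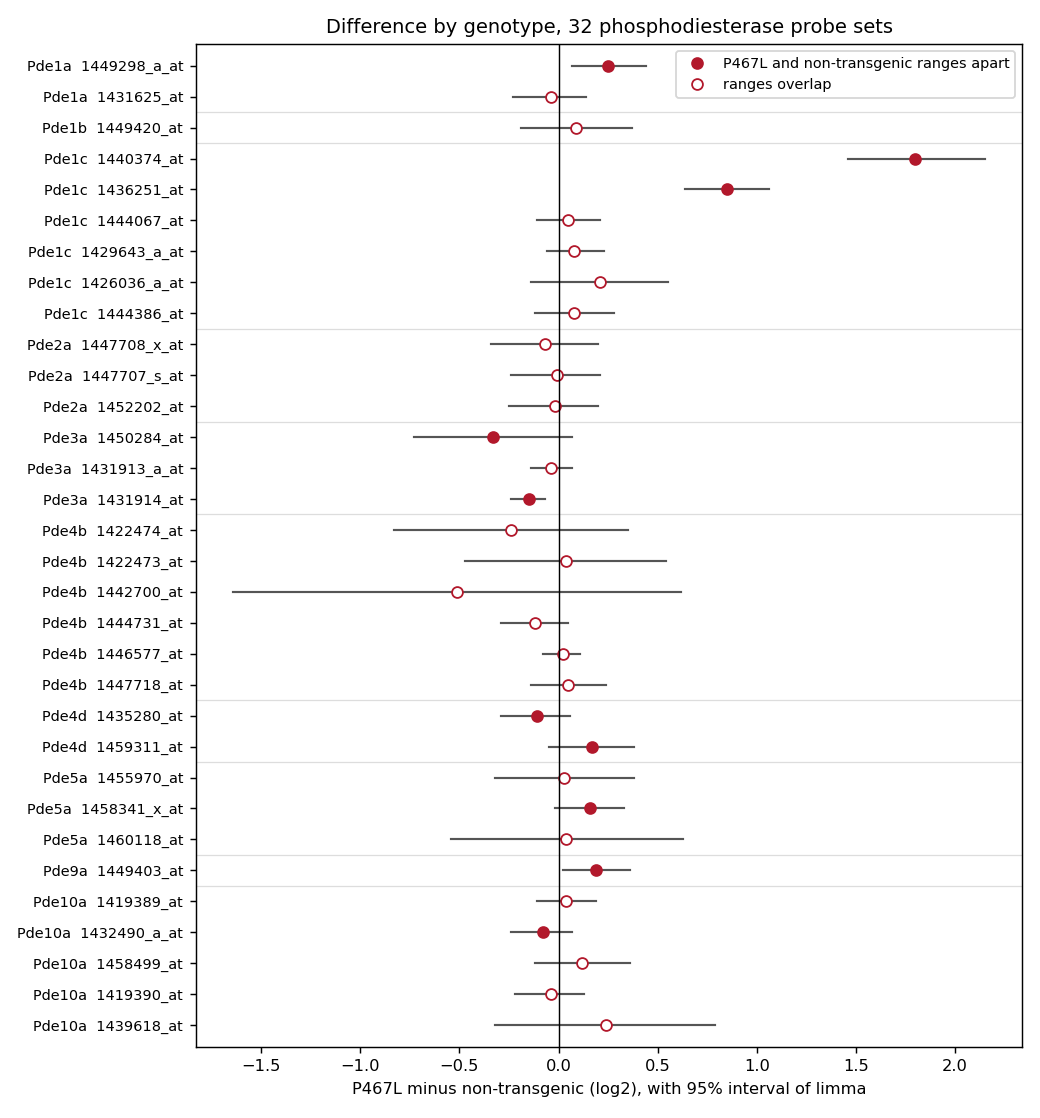
Difference P467L minus non-transgenic (log2) with its 95% interval for each of the 32 probe sets, by gene; filled points mark the 10 probe sets in which the P467L and non-transgenic ranges lie apart. Both Pde1c points at 1.80 and 0.85 stand right of all others, and 28 of the 32 lie within 0.26 units of 0.

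The rest of the pathway was read from the brightest probe set of each gene, with 9.45% of 18193 genes past an unadjusted p of 0.05, 6.94% higher and 2.51% lower. Of 75 genes in the 4 pathway lists 0 passed an adjusted p of 0.05. Among 13 measured phosphodiesterases outside the 10, 1 was higher and 0 lower at the unadjusted threshold, with a median difference of -0.01 (0.02 over all genes). That gene was Pde7a, a cAMP-specific enzyme, at 7.90, 8.17 and 8.04 in P467L and 7.64 and 7.20 in non-transgenic aortas, a difference of 0.62 (SE 0.16). Its other 6 probe sets gave 0.05 to 0.36. Pde6h, a photoreceptor subunit, differed by 0.20 (SE 0.11).

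Of 20 genes for making and reading cGMP, 3 were higher and 2 lower at an unadjusted p of 0.05, and the median difference was 0.01. Prkg2, the cGMP-dependent kinase II, measured 7.11, 6.69 and 7.00 in P467L and 5.69 and 5.69 in non-transgenic aortas. The groups were apart, the difference was 1.24 (SE 0.14), and the other Prkg2 probe sets gave 2.19 and 0.50. Nos3, the endothelial nitric oxide synthase, differed by 0.47 (SE 0.05). The 2 lower genes were Npr3, the clearance receptor of natriuretic peptides, at -1.98 (SE 0.31), and Gucy1a1, a subunit of the nitric oxide receptor, at -0.15 (SE 0.05). Npr3 was singled out after its values were seen, and it measured 5.05, 5.79 and 5.95 in P467L and 7.66 and 7.50 in non-transgenic aortas. Gucy1b1, the other subunit of that receptor, differed by -0.08 (SE 0.05), and the kinase Prkg1 by -0.06 (SE 0.27). For Npr3, Gucy1a1, Gucy1b1 and Prkg1 only the brightest probe set is given here. The adjusted p in limma was 0.230 for Prkg2, 0.234 for Nos3 and 0.329 for Npr3.

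Of 29 genes for making and reading cAMP, 6 were higher and 1 lower at an unadjusted p of 0.05, and the median difference was 0.10. Under the alternatives that median ran from 0.04, without both P467L replicate 1 and non-transgenic replicate 2, to 0.14 with median centring. Adcy1, an adenylyl cyclase that calcium and calmodulin switch on, measured 8.28, 8.37 and 8.21 in P467L and 7.12 and 6.73 in non-transgenic aortas. The groups were apart, with a difference of 1.36 (SE 0.14) and an adjusted p of 0.206 in limma, and a dim Adcy1 probe set gave 0.09. Adcy6, which calcium inhibits, differed by 0.39 (SE 0.07). Of 13 measured anchoring and signalling partners of phosphodiesterases and kinase A, 0 were higher and 1 lower, the anchoring protein Akap6 at -0.24 (SE 0.07). A second Akap6 probe set gave 0.01 (SE 0.09). Arrb2, an arrestin that can bring PDE4 to receptors, differed by 0.12 (SE 0.05). Its second probe set, outside that count, gave 0.23 (SE 0.05), with an unadjusted p of 0.00742 and an adjusted p of 0.445 in limma. No calmodulin gene had a single-gene probe set in the table.

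**Figure D4:**
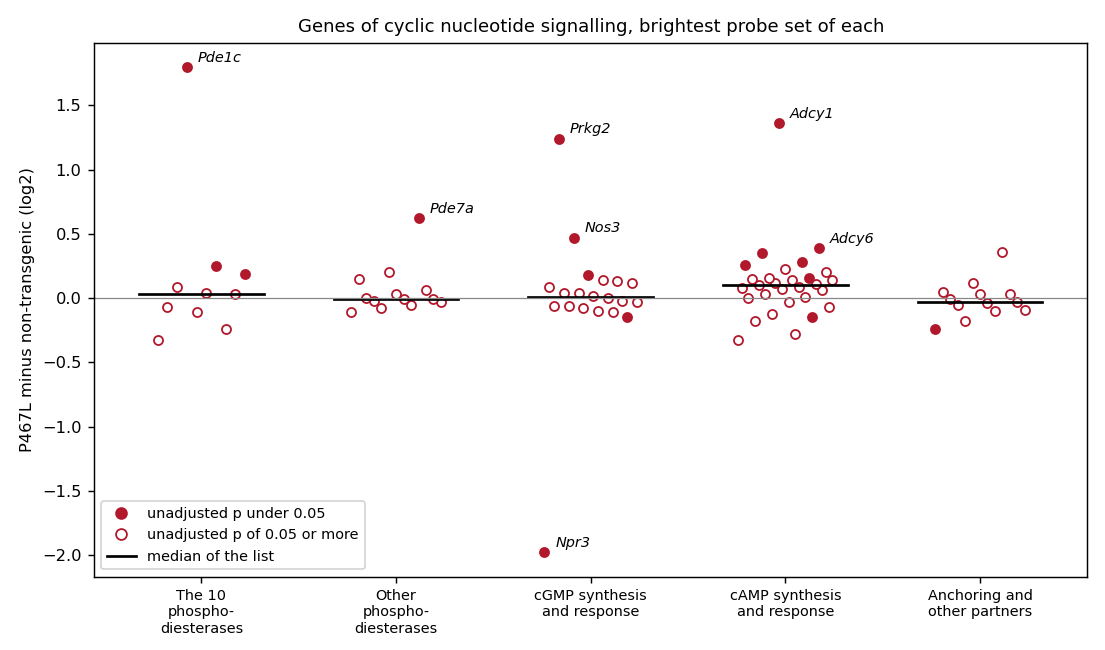
Difference P467L minus non-transgenic (log2) at the brightest probe set of each gene, for the 10 phosphodiesterases and the 4 pathway lists; filled points have an unadjusted p under 0.05 and black bars are list medians. Pde1c at 1.80, Adcy1 at 1.36 and Prkg2 at 1.24 lie above the rest and Npr3 at -1.98 below, while the medians lie between -0.03 and 0.10.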

How the data were processed

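Total RNA of mouse thoracic aorta was measured on 5 Affymetrix Mouse Genome 430 2.0 arrays, grouped by the genotype label into 3 P467L and 2 non-transgenic arrays, each an independent pool per the labels. The deposited values are on the log2 scale and come from the authors' RMA run, which the submitters' processing notes place in Affymetrix Power Tools. RMA quantile normalizes the probe intensities, which can take out a change common to most transcripts, while the summarized arrays still differed in median, from 6.17 to 6.25. The values carry 2 decimals and run from 3.03 to 14.99. Precision is set by having only 5 arrays.

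Gene names came from the platform annotation, with symbols updated through gene numbers of the GRCm38.p6 gene table. Of 45037 probe sets, after 64 controls were left out, 34945 had 1 gene. The test was limma 3.58.1 under R 4.3.3, by lmFit then eBayes, two-sided and without covariates. Adjustment was by Benjamini-Hochberg across the 45037, with a threshold of 0.05 and 4.23 degrees of freedom per test. The fit was tested on simulated data with the same spread in every probe set. The real data lack that trait, so the power of the fit here was not tested. Lists were read from the probe set of each gene with the highest mean; all 192 entries matched a gene number, and those without a single-gene probe set were not used here. Every member was named, and of each pathway list the 2 genes with the smallest p, as none passed. Genes that make or bind cAMP or cGMP could also be named. The members, lists and tests were chosen with earlier results of these data known. Motifs were counted in RefSeq windows with Python 3.11.15. Alternatives covered scaling, filters, variance models, array weights, the replicate block and left-out arrays. The sources used here name no batch.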

Additional observations from a re-analysis of the deposited data

How the results depend on the processing

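Of 45037 probe sets 0 were called with all 5 arrays; 3353 lay under an unadjusted p of 0.05. Median centring called 15, with 1 phosphodiesterase probe set among them, and 1 probe set per gene called 10. At an adjusted p of 0.10, 17 were called. Array weights called 2245, with 4 phosphodiesterase probe sets and 9 pathway genes, but their estimate stopped before it converged and gave P467L replicate 2 a weight of 34.06. Weights estimated gene by gene, added after the data were seen, called 283, with 2 phosphodiesterase probe sets and 4 pathway genes. The other alternatives called 0. Both Pde1c probe sets whose groups were apart kept a positive difference throughout. It ran from 1.69 to 1.91 at 1440374_at, with adjusted p of 0.0121 to 0.746 in limma, and from 0.78 to 0.97 at 1436251_at. The labels give same-numbered arrays only a number in common. Their deviations from group means correlated at 0.113 and 0.00814. With 2 non-transgenic arrays, whose deviations mirror each other, these values cannot show whether such arrays share a batch. With the replicate block 0 were called and Pde1c gave 1.71 (adjusted p = 0.552 in limma). In that fit P467L replicate 3 forms a block alone, so its differences equal those without that array.

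Of 432 pairs of a probe set and an alternative, 36 changed sign, in 15 probe sets, none called; the cause was not tested. With the block Pde2a gave 0.01, 0.04 and 0.01 and Pde5a 1455970_at -0.09. With median centring Pde2a gave 0.03 and 0.02 and Pde3a 1431913_a_at 0.01. With a second quantile normalization Pde2a gave 0.03, Pde3a 0.01, Pde4b 1422473_at -0.01 and Pde5a -0.01. With array weights Pde5a gave -0.09 and -0.19, and gene by gene -0.06 and -0.16. With arrays left out the ranges were -0.14 to 0.05 for Pde1a 1431625_at, -0.03 to 0.14 for Pde1b 1449420_at, 0.00 to 0.07 for Pde1c 1444067_at, -0.18 to 0.01 for Pde2a 1447708_x_at, -0.14 to 0.06 for Pde2a 1447707_s_at, -0.15 to 0.06 for Pde2a 1452202_at, -0.56 to 0.14 for Pde4b 1422474_at, -0.25 to 0.35 for Pde4b 1422473_at, -0.76 to 0.01 for Pde4b 1442700_at, -0.03 to 0.14 for Pde4b 1447718_at, -0.09 to 0.09 for Pde5a 1455970_at, -0.15 to 0.17 for Pde5a 1460118_at, -0.01 to 0.06 for Pde10a 1419389_at and -0.10 to 0.02 for Pde10a 1419390_at.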
